A study of Mus musculus with 14 samples.

Results

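The comparison described here set left ventricles of mice that received a short hairpin RNA directed at Foxo1 against left ventricles of mice that received a scrambled hairpin, all of them on a regime that models heart failure in which the ejection fraction is preserved (HFpEF). It took in 9 of the 14 RNA libraries of the study, 5 labelled HFpEF-FoxO1-sh and 4 labelled HFpEF-scr, chosen by their titles alone. Both groups were C56Bl6 mice, as the labels spell it, given a high-fat diet and L-NAME, which inhibits nitric oxide synthase, for 6 weeks and an adeno-associated virus (AAV) with its hairpin for 4 weeks. The 5 Control libraries came from mice of the same label on a standard diet, labelled 10 weeks, with no AAV named, and their levels are given where they help to place a value. The labels name no serotype, promoter, target cell or hairpin sequence for the virus, no age and no time of day of harvest, and they leave unsaid whether each replicate was its own animal. A p below therefore reflects spread among libraries, which may be technical. The series title names rhythm disturbance in HFpEF, and a role of FoxO1 in it, as the subject of the study.

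FoxO1 is a transcription factor of the forkhead family that insulin, through the kinase Akt, keeps out of the nucleus. In heart muscle it is known for driving genes of protein breakdown, growth arrest and the sparing of glucose, such as Pdk4, and in fibroblasts it has been tied to the response to TGF-beta. The matrix between heart muscle cells is laid down chiefly by fibroblasts, as fibrillar collagens that carry tension, collagen VI and basement membranes that anchor cells, and elastic fibres, and these genes are described first below.

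The deposited values were expected counts per gene, which summed to between 13638430 and 15384384 per library in the 9 HFpEF libraries. Levels are given as CPM, the count of a gene scaled to a common library size with TMM factors, and fold changes as log2 of HFpEF-FoxO1-sh over HFpEF-scr with their standard error. A gene was called, and is said to have risen or fallen, at an adjusted p under 0.05 in edgeR's quasi-likelihood test with Benjamini-Hochberg adjustment over 13588 genes. Adjusted p below are from that test, except where limma voom is named. Where libraries were left out, the filter and the adjustment were redone on the libraries that remained. Each call was retested 9 times with 1 library left out, and "kept" below means kept in all 9 of these refits. On the first principal component of the 9 libraries, which held 23.7% of the variance, the HFpEF-scr libraries lay between -31.8 and -3.91 and the HFpEF-FoxO1-sh libraries between 8.81 and 15.9. HFpEF-scr 1 stood farthest out, and it carried the highest level of red cell genes (mean log2 CPM 7.92, against 3.76 to 5.74 in the other 8). HFpEF-scr 1 and 2 carried the highest levels of immediate early genes (6.04 and 6.35, against 3.49 to 5.41 in the other 7). Counts are therefore also given without these 2 libraries. For genes highest in these 2, a smaller fall is built into that choice. The 13 heart muscle markers were abundant in all 9 libraries, with a summed level of 114147 to 130362 CPM.

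Foxo1 lies on the plus strand of chromosome 3 at 52268336 to 52353221 (GRCm38). Its messenger RNA was at 44.8, 48.3, 41.04 and 40.1 CPM in HFpEF-scr 1 to 4 and at 41.5, 46.01, 39.3, 43.8 and 41.4 CPM in HFpEF-FoxO1-sh 1 to 5. The ranges overlapped, and the log2 fold change was -0.04 ± 0.06 (95% interval -0.17 to 0.09, adjusted p = 0.78). A fall of Foxo1 transcript in whole ventricle was therefore not seen, and the libraries are named by their labels throughout. The other family members were not called either: Foxo3 had a log2 fold change of 0.04, Foxo4 of 0.06 and Foxo6 of 0.30, with adjusted p of 0.913, 0.581 and 0.525. The table counts whole genes, so a fall in some cell types only, or in protein, cannot be read from it.

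Of the genes tested, 486 were called (3.58%), 179 higher (1.32%) and 307 lower (2.26%) in HFpEF-FoxO1-sh. The changes were mostly small. The median called fall was 1.35-fold and the median called rise smaller, at 1.202-fold. Of the rises 164, and of the falls 213, were under 1.5-fold, while 2 genes (0.0147%) rose and 30 (0.221%) fell by at least 2-fold. The 2 groups did not overlap in 163 of the called rises and 263 of the called falls, beside 1133 (8.34%) of all genes tested, 558 of them higher (4.11%) and 575 lower (4.23%). Fewer were called in the refits: 33 rises and 97 falls were kept, and without HFpEF-scr 1 and 2 together 12 rises and 42 falls were called. The latter refit has fewer scrambled libraries and so less power, and a call can be lost there without a smaller change. At an unadjusted p under 0.05 in edgeR's test, 1269 of the 13588 genes were higher and 1407 lower. Without HFpEF-scr 1 and 2 these counts were 877 and 987. Counts of list members at an unadjusted p are to be read beside these. Of the 57 genes named by rule or in the text whose calls were kept, 22 were also called without HFpEF-scr 1 and 2: Col1a1, Col3a1, Col4a1, Col5a1, Col5a2, Col6a1, Col6a2, Col6a3, Col15a1, Lama4, Fbn1, Loxl1, Loxl2, Vcan, Myh9, Flna, Tpm4, Itgb3, Idh1, Srebf2, Fstl1 and Lgals3bp. The other 35, which are all the kept genes below outside these 22, then had adjusted p of 0.051 to 0.224. Leaving out HFpEF-FoxO1-sh 1 alone left 162 calls, and leaving out HFpEF-scr 4 alone gave 668. The plot of all genes by level shows the called genes, with the called matrix genes as a lower band and the respiratory subunits as a narrow band just above 0.

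**Figure D1:**
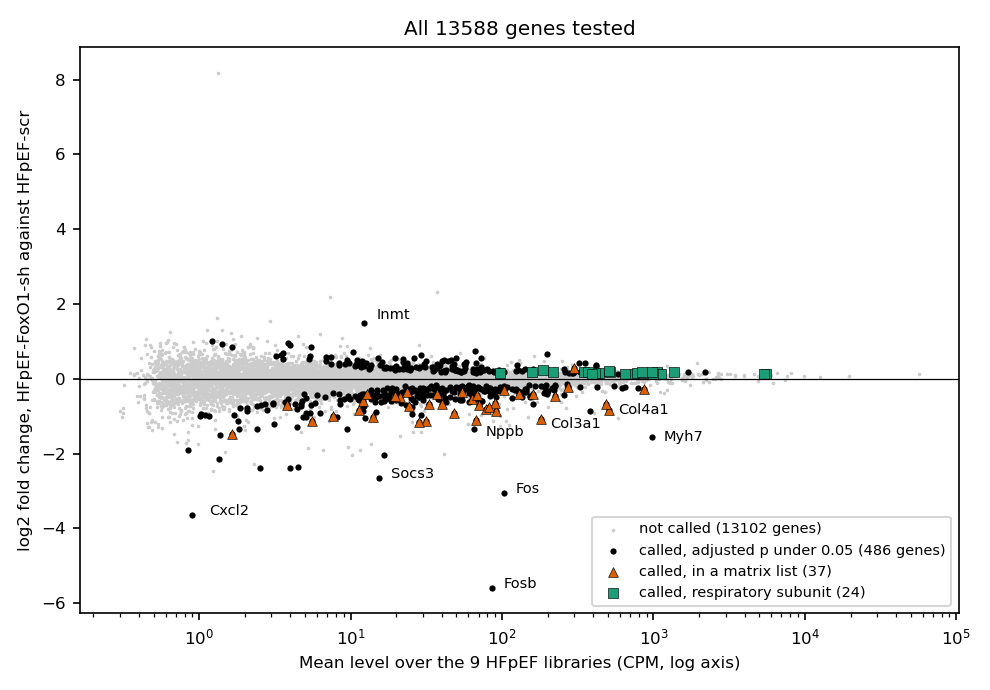
Difference between the groups as log2 of HFpEF-FoxO1-sh over HFpEF-scr (vertical axis) by the mean level over the 9 HFpEF libraries in CPM (horizontal log axis), 1 point per gene tested. Black points are the 486 called genes, orange triangles the 37 called genes of the matrix lists, 36 of them lower, and green squares the 24 called respiratory subunits, all higher and all by small amounts.

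Genes were grouped in 49 lists by their known roles. The plot of list counts sets the members called against the shares over all genes, and the largest shares were those of basement membrane and collagen VI, lower, and of respiratory complexes II to V, higher.

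**Figure D2:**
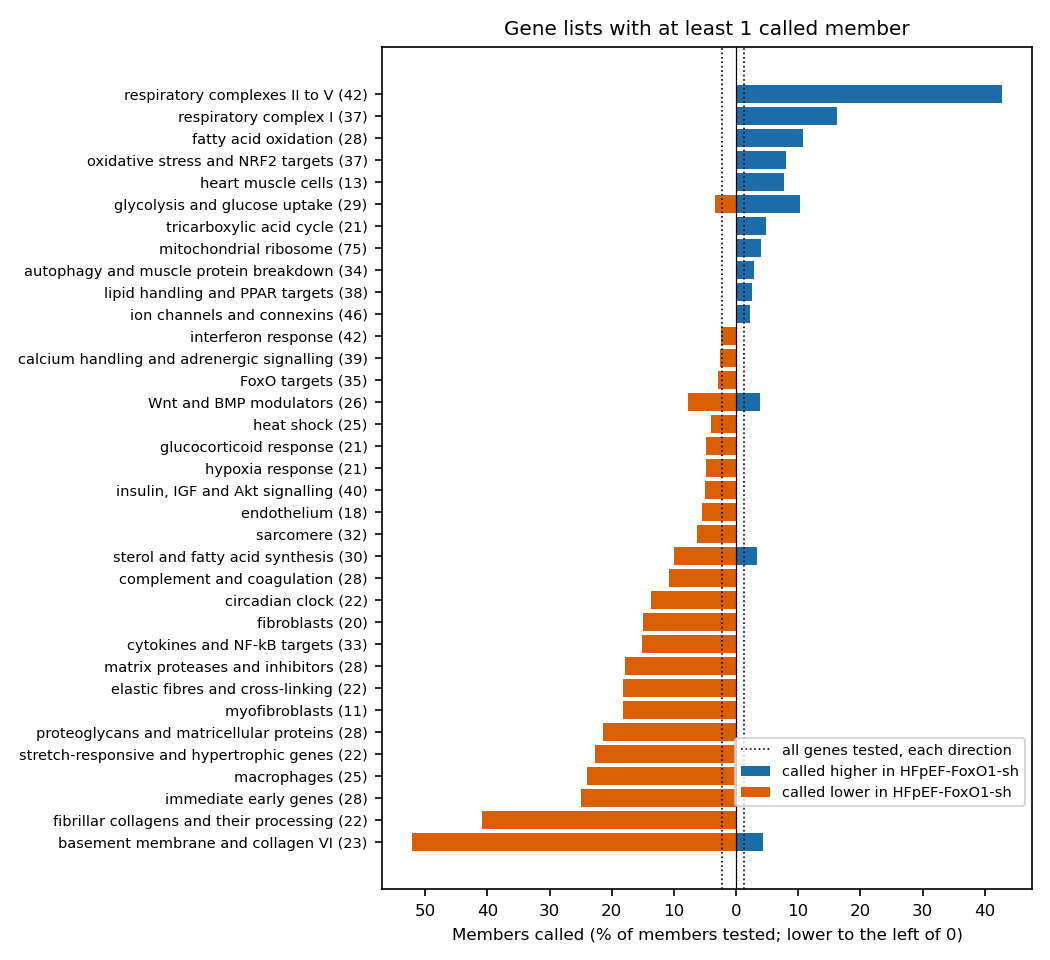
Share of the tested members of each list that was called higher (blue, right of 0) or lower (orange, left of 0) in HFpEF-FoxO1-sh against HFpEF-scr, for lists with at least 1 called member and with the number tested in brackets. Dotted lines are the shares over all genes tested, 1.32% higher and 2.26% lower; the basement membrane and collagen VI list reaches 12 of 23 lower and the list of respiratory complexes II to V 18 of 42 higher.

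Over 5 lists of matrix genes, which hold 123 tested genes between them, 36 fell (beside 2.26% of all genes), 1 rose and 86 were not called. The median log2 fold change was -0.25, beside 0.00 over all genes. The log2 fold change was below 0 for 104 of the 123 and above 0 for 19. Of the 36 falls 24 were kept, and without HFpEF-scr 1 and 2 together 16 matrix genes were called lower.

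Among the fibrillar collagens and the enzymes that process them, 9 of 22 fell (median -0.32), and 6 of these were kept. Col3a1, which encodes the collagen of pliable fibrils, fell (log2 fold change -1.07 ± 0.12, adjusted p = 0.000149), and so did Col1a1, which encodes the main chain of stiff type I fibrils. Col1a1 was at 107, 107, 111 and 88.6 CPM in HFpEF-scr 1 to 4 and at 49.1, 55.5, 67.1, 64.8 and 59.5 CPM in HFpEF-FoxO1-sh 1 to 5. Every hairpin library lay below every scrambled one, and the log2 fold change was -0.80 ± 0.08 (adjusted p = 8.89e-05). Its partner chain Col1a2 fell less, by 1.32-fold (-0.40 ± 0.07, adjusted p = 0.00701). Collagen V seeds and limits the width of fibrils. Col5a1 was at 71.6, 84.02, 79.1 and 70.2 CPM against 48.1, 50.6, 59.5, 50.3 and 53.5 CPM, again without overlap, a log2 fold change of -0.54 ± 0.07 (adjusted p = 0.000598). Col5a2 fell by 1.61-fold, and Adamts2, the protease that trims the ends of procollagens, by 1.41-fold. Col1a1, Col1a2, Col3a1, Col5a1, Col5a2 and Adamts2 were the 6 that were kept. The third chain of collagen V, Col5a3, had the largest fold of the list (-1.17 ± 0.24), with 29.7, 60.5, 43.9 and 29.97 CPM against 15.1, 21.7, 17.7, 15.9 and 21.1 CPM, and an adjusted p of 0.0172 that reached 0.0528 without HFpEF-FoxO1-sh 1. Col14a1 and P4ha1 completed the 9 and were less stable, with adjusted p up to 0.107 without HFpEF-scr 3 and 0.143 without HFpEF-scr 1.

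The list of basement membrane and collagen VI genes had 12 of 23 members lower (median -0.27), 9 of them kept. Collagen VI makes the beaded filaments that link cells to the surrounding fibrils, and all 3 of its main chains fell. Col6a2 was at 100.4, 115, 105 and 103 CPM in HFpEF-scr and at 59.2, 65.5, 66.7, 60.2 and 62.2 CPM in HFpEF-FoxO1-sh. The groups were far apart compared with the spread inside each, and the log2 fold change was -0.75 ± 0.07 (adjusted p = 4e-05). Col6a1 (-0.66 ± 0.07, adjusted p = 0.000108) and Col6a3 (-0.91 ± 0.08, adjusted p = 4e-05) fell in the same way. The promoter of Col6a1 in RefSeq (GRCm38.p6, minus strand) holds the FoxO core motif GTAAACA, within the 29 bases of chr10:76726238-76726266, and the AP-1 motif TGACTCA, within those of chr10:76726117-76726145. The motifs begin 211 and 90 bases before the start, and the stretches are shown 5′ to 3′ with the motif in capitals, the FoxO core because the hairpin is directed at a FoxO factor.
Col6a1, FoxO core: actctgagtggGTAAACAtcccacacacc
Col6a1, AP-1 motif: tgctgatgctgTGACTCActcagctttga

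Of the network collagen IV under endothelium and muscle, Col4a1 was at 756, 675, 705 and 533 CPM against 330.2, 392, 383, 387 and 383 CPM, a 1.78-fold fall (adjusted p = 0.000895). Its partner Col4a2 fell by 1.59-fold. Col15a1, a collagen at the outer face of basement membranes, fell by 1.82-fold (-0.86 ± 0.12).

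Laminins join the cell surface to collagen IV. Lamb1 fell from a mean of 184 ± 14.02 CPM (SD, n = 4) to 139 ± 11.2 CPM (SD, n = 5) and Lama4, of endothelium and muscle, from 115 ± 3.84 to 93.2 ± 3.89 CPM, with adjusted p of 0.00325 and 0.00392. Hspg2, which encodes perlecan, fell by 1.21-fold and was kept. Lamc1, Col18a1 and Sparc fell but were not kept, with adjusted p up to 0.0731 without HFpEF-FoxO1-sh 4, 0.129 without HFpEF-scr 3 and 0.0988 without HFpEF-scr 1. The exception in direction was Lama5, the laminin chain of mature vessels, at 271, 273, 266 and 260.5 CPM in HFpEF-scr and 354, 312, 331, 288 and 342 CPM in HFpEF-FoxO1-sh. It rose by 1.22-fold (adjusted p = 0.0352), a call lost in 8 of the 9 refits, with an adjusted p of 0.086 without HFpEF-FoxO1-sh 1.

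**Figure D3:**
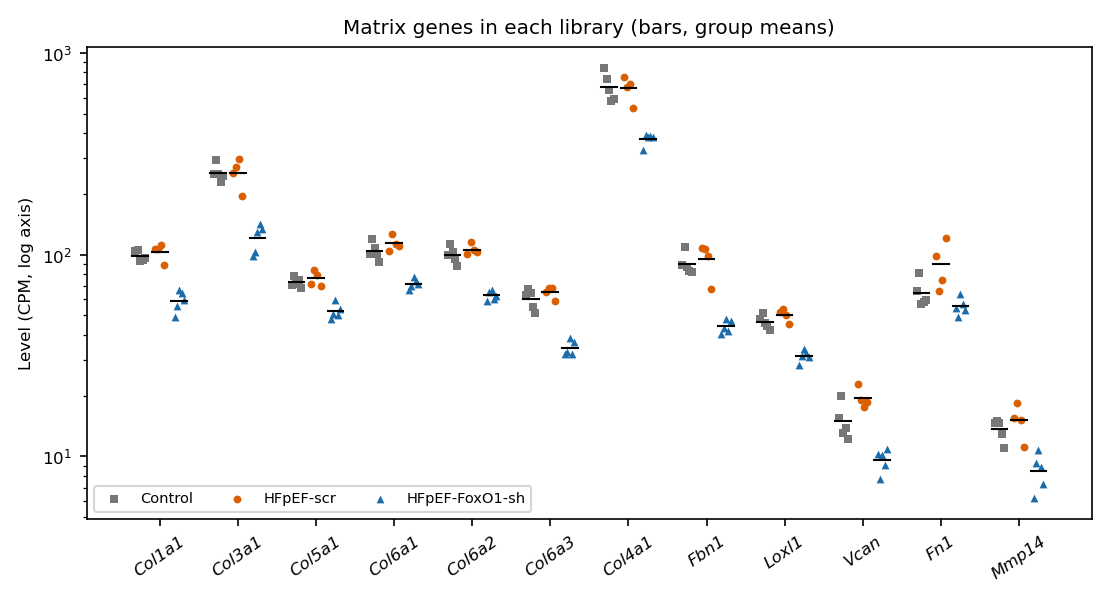
Level of 12 matrix genes in each library in CPM (vertical log axis), for the 5 Control, 4 HFpEF-scr and 5 HFpEF-FoxO1-sh libraries, with bars at the group means. In each of the 12 the HFpEF-FoxO1-sh points lie below all HFpEF-scr points.

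Of the elastic fibre and cross-linking genes, 4 of 22 fell (median -0.24), and all 4 were kept. Fbn1, which encodes fibrillin-1, the scaffold of elastic fibres, was at 108, 107, 98.1 and 67.8 CPM in HFpEF-scr and at 40.6, 43.5, 47.8, 41.7 and 46.99 CPM in HFpEF-FoxO1-sh. The fall was 2.16-fold (-1.11 ± 0.12, adjusted p = 8.89e-05), and 20.1% of its annotated exon bases are shared with another gene model. The lysyl oxidase-like enzymes Loxl1 and Loxl2, which cross-link elastin and collagen, fell by 1.59-fold and 1.65-fold, both with an adjusted p of 8.89e-05. Emilin1, a glycoprotein of elastic fibres, fell by 1.34-fold (adjusted p = 0.00422). Elastin itself (Eln) was at 41.2, 43.5, 39.6 and 35.2 CPM against 25.6, 20.8, 29.4, 22.1 and 29.99 CPM, without overlap, and its adjusted p of 0.0502 was just above the threshold.

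Proteoglycans and matricellular proteins showed 6 of 28 falls (median -0.30), with Vcan, Prelp and Cilp kept. Vcan, versican, the large proteoglycan of growing or inflamed matrix, was at 22.9, 18.98, 17.7 and 18.6 CPM against 10.2, 7.69, 10.2, 9.08 and 10.9 CPM. It fell by 2.03-fold (-1.02 ± 0.13, adjusted p = 0.000941) with a gap between the groups. Cilp, a secreted protein of cardiac fibroblasts, fell by 2.19-fold (adjusted p = 0.0134). Fn1, fibronectin, was at 98.4, 65.9, 74.6 and 121 CPM against 54.2, 48.8, 63.9, 57.2 and 53.1 CPM and fell by 1.62-fold (adjusted p = 0.0195, up to 0.0526 without HFpEF-FoxO1-sh 1). Tgfb1, the main profibrotic cytokine, fell by 1.27-fold (adjusted p = 0.0204, up to 0.059 without HFpEF-FoxO1-sh 1). The growth regulator Nov fell by 1.63-fold (up to 0.0741 without HFpEF-FoxO1-sh 1). Postn and Ctgf, common readouts of activated fibroblasts, were not called, with log2 fold changes of -0.44 ± 0.15 and -0.80 ± 0.28 and adjusted p of 0.103 and 0.115. Small leucine-rich lumican (Lum) was not called either (-0.26 ± 0.10).

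Matrix proteases and inhibitors showed 5 of 28 falls (median -0.22). Mmp14, the membrane-bound collagenase, was at 15.6, 18.4, 15.2 and 11.2 CPM against 6.24, 9.26, 10.8, 8.87 and 7.27 CPM, and it fell by 1.78-fold (adjusted p = 0.00973). Adam19, a membrane-anchored sheddase, was at 55.8, 51.6, 45.8 and 27.6 CPM against 19.4, 17.8, 23.3, 19.5 and 22.6 CPM, a fall of 2.20-fold (adjusted p = 0.00747). Both calls were kept, while those of Adam12, Adamtsl2 and Plat were not, with adjusted p up to 0.106 without HFpEF-scr 1, 0.0854 without HFpEF-scr 3 and 0.102 without HFpEF-scr 1. Without HFpEF-scr 1 and 2 edgeR's test called 0 genes of this list, 7 were lower at an unadjusted p under 0.05, and the median was -0.18.

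Matrix levels were set beside those of Control. In the comparison of HFpEF-scr with Control, where 7.37% of genes were called (3.66% higher, 3.7% lower), the 22 fibrillar collagen genes had a median log2 fold change of 0.06. In HFpEF-FoxO1-sh against Control, where 13% were called (6.68% higher, 6.28% lower), 9 of them were lower and the list median was -0.16. Of the 23 basement membrane and collagen VI genes, 1 was lower in HFpEF-scr and 14 were lower in HFpEF-FoxO1-sh, each against Control. These comparisons share libraries with each other and with the hairpin comparison, so the values stand side by side and are not independent. Col1a1 averaged 98.7 ± 5.86 CPM (SD, n = 5) in Control, 103 ± 9.99 CPM (SD, n = 4) in HFpEF-scr and 59.2 ± 7.23 CPM (SD, n = 5) in HFpEF-FoxO1-sh. Over all called genes, 61 of the 307 falls were genes called higher in HFpEF-scr than in Control, 141 were genes called lower in HFpEF-FoxO1-sh than in Control, with 1 counted in both, and 106 were neither.

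Markers of the cells that make matrix were measured beside these genes. Of the 20 fibroblast markers 3 fell (median -0.16), with 16 log2 fold changes below 0 and 4 above. At an unadjusted p under 0.05, 8 were lower and 0 higher, while DESeq2 called 4 lower and limma voom 2. The mean log2 CPM of the list overlapped, at 4.72 to 4.90 in HFpEF-scr and 4.54 to 4.81 in HFpEF-FoxO1-sh. HFpEF-scr 1 was the only scrambled library inside the hairpin range. The summed level ran from 1765 to 2268 CPM and from 1729 to 2164 CPM. The fibroblast receptor Pdgfra was at 44.3, 61.7, 52.05 and 52.5 CPM against 56.4, 43.02, 51.2, 45.2 and 49.5 CPM, with a log2 fold change of -0.10 ± 0.09 and an adjusted p of 0.597. The fibroblast transcription factor Tcf21 was not called (-0.34 ± 0.14, adjusted p = 0.194). The 3 falls were those of Cd34, Meox1 and Islr, with adjusted p up to 0.0725 without HFpEF-scr 1, 0.0913 without HFpEF-scr 1 and 0.126 without HFpEF-scr 3. Cilp and Meox1 were the falls among 11 markers of activated fibroblasts, 2 in all (median -0.54), and the mean level of that list did not overlap, at 2.53 to 3.05 against 2.04 to 2.32. Cilp was also counted in the matrix lists and Meox1 among the fibroblast markers, so these counts share genes. Lists without a call could be apart as well, such as the proteasome, which was higher (6.22 to 6.27 against 6.28 to 6.35). Of 14 pericyte and smooth muscle markers, 13 had a log2 fold change below 0 (median -0.19) and edgeR's test called none. At an unadjusted p under 0.05, 7 of them were lower, while DESeq2 called 2 lower and limma voom 0. In bulk RNA, fewer cells of a type and less RNA per cell cannot be told apart, and the part of cell numbers in the matrix falls was not tested.

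**Figure D4:**
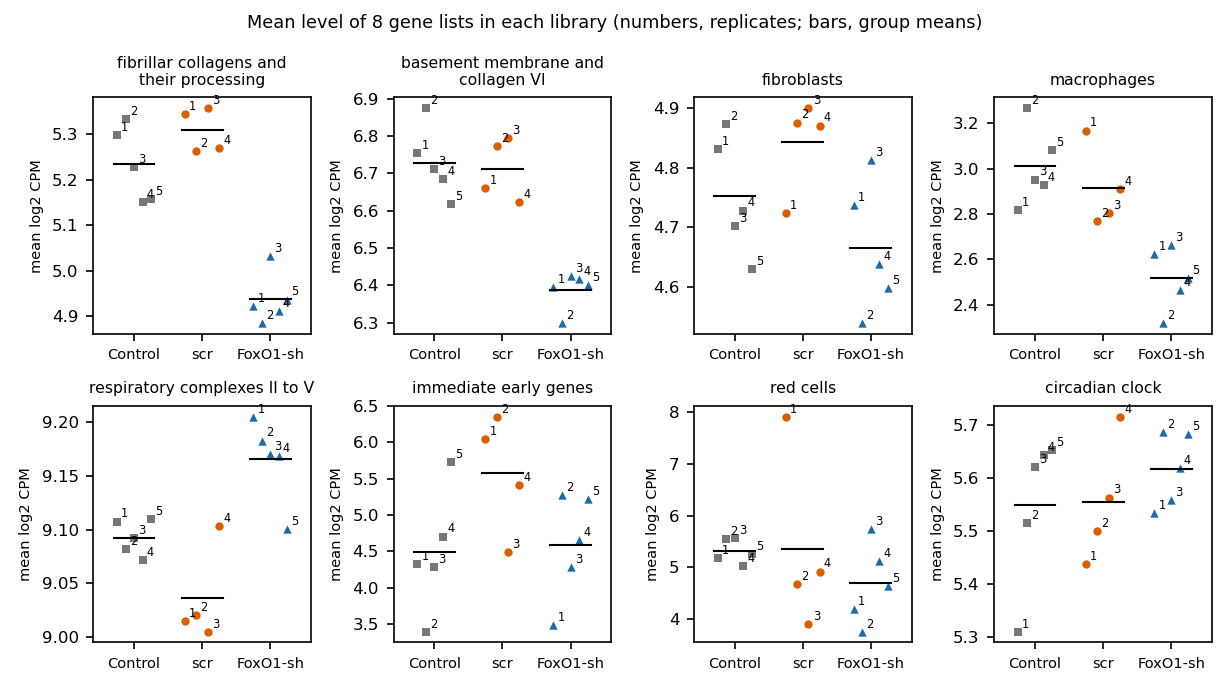
Mean log2 CPM of the tested members of 8 lists in each library, 1 panel per list, with the replicate number beside each point and bars at the group means for Control, HFpEF-scr and HFpEF-FoxO1-sh. The 2 matrix lists and the macrophage markers separate the hairpin libraries from all scrambled ones, as do some lists not shown, such as the proteasome. The fibroblast markers overlap, with only HFpEF-scr 1 inside the hairpin range. HFpEF-scr 1 and 2 stand high in the red cell (1) and immediate early (1 and 2) panels.

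Some genes of the actin cytoskeleton were picked after their values were seen, and they stand for no list. Myh9, the heavy chain of non-muscle myosin, was at 318, 282, 312 and 289 CPM in HFpEF-scr and at 215, 229, 216, 223 and 227 CPM in HFpEF-FoxO1-sh. The hairpin libraries were tightly grouped below all the scrambled ones (log2 fold change -0.44 ± 0.04, adjusted p = 8.89e-05). The actin cross-linker Flna fell by 1.33-fold, the stromal filament gene Vim by 1.40-fold and the cytoskeletal tropomyosin Tpm4 by 1.42-fold, and all 4 calls were kept. Srf, the transcription factor that drives many actin genes, and its partner Myocd fell by 1.27-fold and 1.37-fold, with adjusted p up to 0.133 without HFpEF-scr 1 and 0.0701 without HFpEF-FoxO1-sh 1. Of 23 integrin chains tested, which grip the matrix or other cells, 6 fell and the median log2 fold change was -0.27, a count made after values were seen. Itga5, Itga6 and Itgb3 fell by 1.21-fold, 1.39-fold and 2.31-fold and were kept. Itga9, Itga11 and Itgam were not kept, with adjusted p up to 0.0603 without HFpEF-scr 3, 0.08 without HFpEF-scr 3 and 0.0967 without HFpEF-scr 1. Itgb3 was at 7.60, 2.84, 3.91 and 4.04 CPM against 1.73, 1.94, 2.07, 1.69 and 2.47 CPM, and HFpEF-scr 1 was its highest library. Cd44, the receptor for hyaluronan, fell by 1.61-fold (adjusted p = 0.00392) and was kept.

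Of 25 macrophage markers tested, 6 fell and 23 had a log2 fold change below 0 (median -0.41). The summed level was 307 to 406 CPM in HFpEF-scr and 230.5 to 291 CPM in HFpEF-FoxO1-sh, without overlap. That of the proteasome list, which had no call, did not overlap either. Emr1, which encodes the F4/80 antigen and is now named Adgre1, was at 8.37, 6.79, 6.47 and 6.31 CPM against 3.85, 3.36, 4.55, 4.79 and 4.67 CPM. It fell by 1.64-fold (adjusted p = 0.0135) and was the single macrophage call that was kept. Mrc1, the mannose receptor of resident macrophages, was at 37.02, 28.9, 27.7 and 33.2 CPM against 21.6, 18.3, 25.2, 20.3 and 20.6 CPM and fell by 1.49-fold, with an adjusted p of 0.0166 that reached 0.0505 without HFpEF-scr 1. Lyz2, Laptm5, Ctss and Itgam were the other falls, with adjusted p up to 0.0552 without HFpEF-FoxO1-sh 4, 0.0893 without HFpEF-scr 1, 0.079 without HFpEF-FoxO1-sh 2 and 0.0967 without HFpEF-scr 1. Another gene model covers 68.7% of the exon bases of Itgam. Csf1r, the receptor for the macrophage growth factor, did not overlap (37.6, 36.6, 28.7 and 29.2 CPM against 25.7, 21.7, 28.5, 24.3 and 24.1 CPM) but had an adjusted p of 0.0546. Without HFpEF-scr 1 alone 2 macrophage genes were called, and without HFpEF-scr 1 and 2 together edgeR's test called 0, with 10 lower at an unadjusted p under 0.05 and a median of -0.35.

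Of 33 genes for cytokines and targets of NF-kB, 5 fell (median -0.55), and limma voom called 2 lower. Leaving out HFpEF-scr 1 and 2, edgeR's test called 0, with 8 lower at an unadjusted p under 0.05 and a median of -0.29. Icam1, the adhesion molecule that leukocytes bind on endothelium, was at 18.2, 15.2, 16.8 and 12.2 CPM against 7.04, 11.3, 10.3, 9.57 and 9.20 CPM. The groups did not overlap, and the fall of 1.65-fold (adjusted p = 0.00669) was kept, with an adjusted p of 0.086 without HFpEF-scr 1 and 2. Osmr, the receptor for oncostatin M, fell by 1.26-fold (adjusted p = 0.0162) and was kept. Socs3, which brakes cytokine signalling through Stat3, was at 28.9, 66.4, 4.80 and 16.2 CPM against 4.78, 5.60, 4.55, 3.94 and 4.33 CPM. HFpEF-scr 3 lay inside the range of the hairpin libraries and the other 3 scrambled libraries far above it (log2 fold change -2.64 ± 0.49, adjusted p = 0.0105). The adjusted p of Socs3 was 0.149 without HFpEF-scr 1 and 2 and 0.109 in limma voom. The chemokine genes Ccl2 and Cxcl2 fell (-1.34 ± 0.32 and -3.64 ± 0.83) at low levels, with adjusted p up to 0.102 without HFpEF-scr 1 and 0.0722 without HFpEF-scr 1.

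Immediate early genes, which switch on within minutes of a stimulus, held the largest fold of the genes named here, that of Fosb, and uneven libraries. Of 28 tested, 7 fell (median -0.74). Fosb, an AP-1 subunit, was at 235, 468, 2.18 and 45.7 CPM in HFpEF-scr 1 to 4 and at 0.863, 10.01, 2.48, 2.53 and 3.999 CPM in HFpEF-FoxO1-sh 1 to 5. HFpEF-scr 1 and 2 were high, HFpEF-scr 4 was between, and HFpEF-scr 3 lay inside the hairpin range, so the groups overlapped (log2 fold change -5.59 ± 1.03, adjusted p = 0.00973). Fos showed the same order, at 273, 416, 16.8 and 100.4 CPM against 3.45, 44.9, 13.6, 21.6 and 38.1 CPM (-3.05 ± 0.81, adjusted p = 0.0479, up to 0.116 without HFpEF-scr 2). Nr4a3, an orphan nuclear receptor, did not overlap, at 4.29, 6.86, 3.65 and 14.2 CPM against 0.863, 1.57, 0.897, 1.48 and 2.13 CPM (-2.38 ± 0.49, adjusted p = 0.0171, up to 0.0528 without HFpEF-FoxO1-sh 1). Ptgs2, Myc, Dusp5 and Jund were the other falls, with adjusted p up to 0.055 without HFpEF-scr 2, 0.0835 without HFpEF-scr 2, 0.0842 without HFpEF-scr 3 and 0.111 without HFpEF-scr 2. Fosb was the 1 of the 7 that was kept, but its adjusted p was 0.346 in limma voom, which called 3 genes of the list, and 0.224 without HFpEF-scr 1 and 2. Egr1 was not called (-0.92 ± 0.73, adjusted p = 0.526). Without HFpEF-scr 1 and 2 the list median was -0.09, and edgeR's test called 0 members, with 4 lower at an unadjusted p under 0.05. These libraries were left out for their high level of this same list, so a smaller fall was built into that refit. It cannot show whether the fall is stable.

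**Figure D5:**
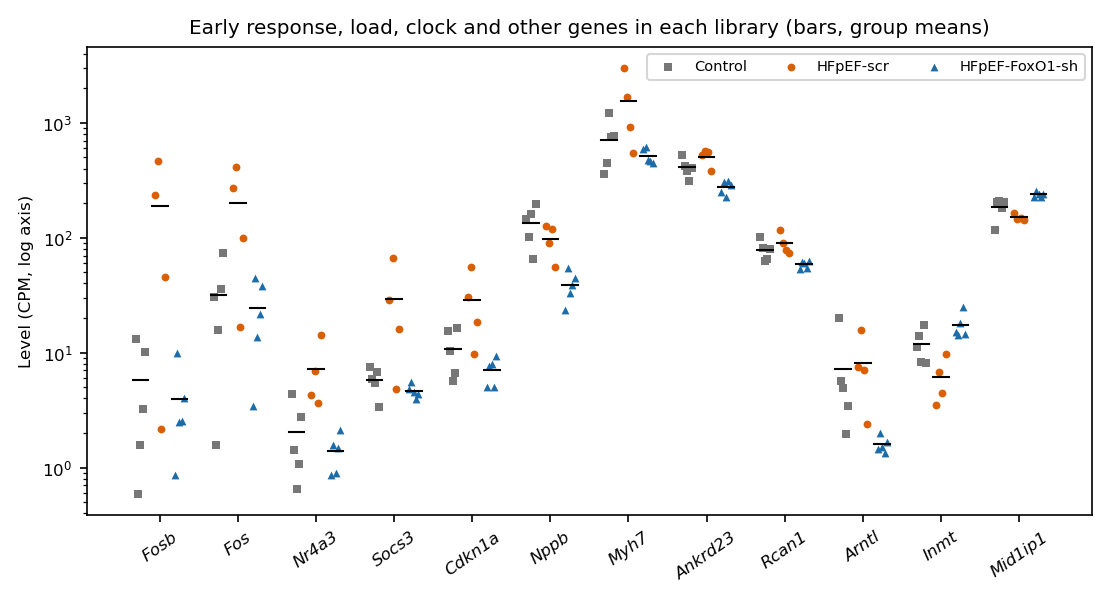
Level of 12 genes in each library in CPM (vertical log axis) for the 5 Control, 4 HFpEF-scr and 5 HFpEF-FoxO1-sh libraries, with bars at the group means. The HFpEF-scr points of Fosb, Fos, Socs3, Cdkn1a and Myh7 are spread widely. The HFpEF-FoxO1-sh points of these genes are lower on average, and those of Fosb and Fos are also spread widely. Ankrd23 and Rcan1 are lower without overlap, and Inmt and Mid1ip1 are higher without overlap.

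Genes that heart muscle raises under stretch or hypertrophic load gave 5 falls among 22 (median -0.34). In edgeR's test without HFpEF-scr 1 and 2 there were 0 calls, with 11 lower at an unadjusted p under 0.05 and a median of -0.30. Ankrd23, a stretch-responsive ankyrin repeat protein of the sarcomere, was the 1 that was kept (adjusted p = 0.0678 without HFpEF-scr 1 and 2), and 78.2% of its exon bases are shared with a second gene model, so reads of the pair may be divided between them. Its promoter (GRCm38.p6, minus strand) holds the FoxO core on the opposite strand, 31 bases before the start, in capitals in the 29 bases of chr1:36536570-36536598 shown here.
Ankrd23, FoxO core: tgcaagaatctTGTTTACtgggtatctga

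Nppb, which encodes the precursor of brain natriuretic peptide, the clinical marker of wall stress, was at 127, 89.7, 119 and 55.98 CPM against 23.6, 54.5, 32.8, 38.6 and 44.9 CPM. The groups came close but did not overlap (HFpEF-scr 4 was the lowest scrambled library), and the log2 fold change was -1.34 ± 0.30 with an adjusted p of 0.0244, up to 0.0661 without HFpEF-scr 1. The Control mean was 134 ± 51.5 CPM (SD, n = 5), above that of HFpEF-scr (97.9 ± 32.2 CPM, SD, n = 4). Nppa, the atrial peptide gene, was not called (-0.63 ± 0.28, adjusted p = 0.216).

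Myh7, the slow myosin heavy chain that rises in stressed rodent heart, was at 2987, 1691, 919 and 541 CPM in HFpEF-scr and at 586, 615, 477, 468 and 447 CPM in HFpEF-FoxO1-sh. HFpEF-scr 4 lay inside the hairpin range and HFpEF-scr 1 far above all others. The log2 fold change was -1.57 ± 0.39 (adjusted p = 0.038, up to 0.136 without HFpEF-scr 1). Rcan1, a calcineurin target, was at 117, 89.5, 77.7 and 73.1 CPM against 53.9, 61.5, 60.5, 54.9 and 62.6 CPM, without overlap (-0.61 ± 0.14, adjusted p = 0.0287, up to 0.0823 without HFpEF-scr 1). Flnc, filamin C of muscle, fell by 1.19-fold (up to 0.0654 without HFpEF-scr 3). Skeletal actin (Acta1) and Ankrd1 were not called (-0.76 ± 0.32 and -0.39 ± 0.20). Tnfrsf12a, the receptor for TWEAK, named here after its values were seen, fell by 1.96-fold (adjusted p = 0.00392) and was kept.

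Genes for mitochondrial respiration gave small rises. Of 37 subunits of complex I 6 rose, and all 37 had a log2 fold change above 0 (median 0.13). Of 42 subunits of complexes II to V 18 rose and 41 were above 0 (median 0.14). The 24 rises were of 9.55% to 17.2%, and 1 of them was kept, that of Sdhb of complex II. Without HFpEF-scr 1 and 2 edgeR's test called 0 of the 79, while 50 were higher at an unadjusted p under 0.05 and the medians were 0.12 and 0.12. The choice of method bore on these counts as well. DESeq2 called 48 of the 79 subunits higher, limma voom 27, and edgeR on the 9 HFpEF libraries alone 3. Leaving out HFpEF-FoxO1-sh 1 left 1 call.

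Uqcrc1, a core subunit of complex III, was at 1186, 1286, 1306 and 1351 CPM in HFpEF-scr and at 1486, 1441, 1448, 1471 and 1378 CPM in HFpEF-FoxO1-sh. The groups did not overlap, with HFpEF-scr 1 the lowest library (log2 fold change 0.17 ± 0.04, adjusted p = 0.0272, up to 0.0716 without HFpEF-FoxO1-sh 1). Atp5b, the catalytic subunit of the ATP synthase, was at 4833, 5229, 4995 and 5426 CPM against 5706, 5627, 5551, 5649 and 5515 CPM (0.13 ± 0.04, adjusted p = 0.0491, up to 0.108 without HFpEF-FoxO1-sh 1). Of 75 proteins of the mitochondrial ribosome 3 rose (4%, beside 1.32% of all genes, median 0.09). The heart muscle markers, which would move with the share of muscle RNA, had 11 of 13 log2 fold changes above 0 (median 0.08) and 1 rise, Ckmt2, the mitochondrial creatine kinase (0.19 ± 0.04, adjusted p = 0.0311, up to 0.0786 without HFpEF-FoxO1-sh 1). Their summed level was 114147 to 124151 CPM in HFpEF-scr and 118191 to 130362 CPM in HFpEF-FoxO1-sh. The part of a larger share of muscle RNA in the mitochondrial rises was not tested.

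Of 28 genes of fatty acid oxidation 3 rose and all 28 had a log2 fold change above 0 (median 0.14). Of 29 genes of glycolysis and glucose uptake 3 rose and 1 fell, with 18 above 0 and 11 below (median 0.04). Echs1, the enoyl-CoA hydratase of the beta-oxidation spiral, was at 267, 279, 277 and 281 CPM against 321, 317, 313, 318 and 295 CPM and rose by 1.13-fold (adjusted p = 0.011), a call that was kept. Idh1, the cytosolic isocitrate dehydrogenase, was at 61.2, 53.6, 58.3 and 55.3 CPM against 74.9, 76.7, 72.6, 77.6 and 77.5 CPM, without overlap. It rose by 1.33-fold (0.41 ± 0.06, adjusted p = 0.002) and was kept, also without HFpEF-scr 1 and 2. The kept calls of Echs1 and Ldhb were lost there, with adjusted p of 0.105 and 0.0652. Ldhb, the lactate dehydrogenase chain that heart prefers, rose by 1.14-fold (adjusted p = 0.00872) and was kept. Pfkp, a phosphofructokinase of tissues other than muscle, fell by 1.55-fold (adjusted p = 0.0361, up to 0.0819 without HFpEF-FoxO1-sh 4).

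The next genes were taken after their values were seen. Mpc1 and Mpc2 encode the carrier that brings pyruvate into mitochondria, and both rose, by 1.13-fold and 1.13-fold, Mpc1 kept and Mpc2 with an adjusted p up to 0.101 without HFpEF-FoxO1-sh 1. Gpt, alanine aminotransferase, was at 34.2, 31.1, 33.03 and 35.7 CPM against 52.2, 52.7, 45.9, 44.8 and 41.7 CPM, and 47.8 ± 5.48 CPM (SD, n = 5) in Control. It rose by 1.42-fold (adjusted p = 0.00606) and was kept. Bckdhb, of the complex that breaks down branched-chain amino acids, was at 45.4, 43.4, 45.2 and 49.03 CPM against 55.3, 52.3, 52.9, 54.1 and 53.4 CPM and rose by 1.17-fold (adjusted p = 0.0163, kept), beside 61.4 ± 2.84 CPM in Control. The adjusted p of Gpt, Bckdhb and Mpc1 was 0.0841, 0.173 and 0.086 without HFpEF-scr 1 and 2. Gpt, Bckdhb and Mpc1 had been called lower in HFpEF-scr than in Control, with log2 fold changes of -0.51, -0.42 and -0.20, in a comparison that shares the HFpEF-scr libraries.

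Among the genes taken by the rule for named genes, the largest rise was that of Inmt, a methyltransferase of indoleamines and thioethers. Inmt was at 3.52, 6.72, 4.48 and 9.78 CPM in HFpEF-scr and 15.1, 14.1, 18.3, 24.7 and 14.4 CPM in HFpEF-FoxO1-sh. Every hairpin library was above every scrambled one, and the 2.83-fold rise (standard error of the log2 value 0.28, adjusted p = 0.0105) was kept. Osgin1, an oxidative stress-induced gene, was at 2.74, 2.63, 2.18 and 3.12 CPM against 3.85, 5.83, 5.24, 4.998 and 5.20 CPM. It rose by 1.88-fold (adjusted p = 0.00605) and was kept. Its promoter (GRCm38.p6, plus strand) holds the AP-1 motif 97 bases before the start, in capitals in the 29 bases of chr8:119437039-119437067 shown here.
Osgin1, AP-1 motif: ggggcccctgcTGACTCAcgcttatgaaa

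Mid1ip1, which activates acetyl-CoA carboxylase and so fatty acid synthesis, was the most abundant of the 15 largest rises taken by the rule for named genes, at 163, 146, 149.6 and 143 CPM against 226, 256, 243, 228 and 240.5 CPM, 1.59-fold (adjusted p = 0.011) and kept. Klhl33, Cngb3, Dixdc1 and Slc46a3 rose by 1.64-fold, 1.60-fold, 1.46-fold and 1.48-fold and were kept. Aldh1l1, a folate enzyme, Grhl2 and Ctf1, which encodes the hypertrophic cytokine cardiotrophin-1, rose but were not kept, with adjusted p up to 0.0644 without HFpEF-scr 1, 0.0899 without HFpEF-scr 3 and 0.086 without HFpEF-scr 1.

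Genes of excitability and calcium bear on the rhythm named in the series title. Of 46 ion channel and connexin genes 1 rose (2.17%, beside 1.32% of all genes), and the list median was 0.03. That gene was Kcnh2, the potassium channel of the rapid repolarising current, at 99.2, 114, 103 and 119 CPM in HFpEF-scr and 137, 138, 140.1, 153 and 131 CPM in HFpEF-FoxO1-sh. All 5 hairpin libraries lay above the 4 scrambled ones (log2 fold change 0.36 ± 0.07, adjusted p = 0.0156), and the call was kept, though its adjusted p was 0.119 without HFpEF-scr 1 and 2. In that setting edgeR's test called 0 of the 46 genes, with 5 higher and 2 lower at an unadjusted p under 0.05. Over all 13588 genes these counts were 877 and 987. The Control mean of Kcnh2 was 133 ± 12.3 CPM (SD, n = 5). Kcnj2, of the inward rectifier, had a log2 fold change of 0.31 ± 0.10 and an adjusted p of 0.0793. Connexin 43 (Gja1) was not called, with a log2 fold change of -0.13 ± 0.07 and a 95% interval of -0.27 to 0.00. The 39 calcium handling and adrenergic genes had a median log2 fold change of -0.02. Ryr2 and Atp2a2, the release channel and the pump of the sarcoplasmic reticulum, had log2 fold changes of 0.06 ± 0.08 and 0.07 ± 0.04 and were not called.

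Of 35 tested genes known as FoxO targets, 1 fell (2.86%, beside 2.26% of all genes) and the median was 0.03, with 24 above 0 and 11 below. The fall was that of Cdkn1a, which encodes the cell cycle inhibitor p21, at 30.8, 56.2, 9.67 and 18.4 CPM in HFpEF-scr and 4.98, 7.62, 8.002, 5.07 and 9.40 CPM in HFpEF-FoxO1-sh. The groups did not overlap, though HFpEF-scr 3 came close to HFpEF-FoxO1-sh 5, and the log2 fold change was -2.03 ± 0.42 (adjusted p = 0.0171, up to 0.0528 without HFpEF-FoxO1-sh 1). The scrambled libraries stood in the same order as for Fos and Fosb, with HFpEF-scr 1 and 2 highest. The adjusted p of Cdkn1a was 0.259 without HFpEF-scr 1 and 2 and 0.064 in limma voom. The muscle atrophy ligase gene Fbxo32 was not called (0.14 ± 0.08, adjusted p = 0.361), nor were Pdk4 (-0.35 ± 0.24), Sod2 (0.08 ± 0.04), Cat (0.06 ± 0.07) or Klf2 (-0.63 ± 0.32). Of 40 genes of insulin, IGF and Akt signalling 2 fell (5%, beside 2.26% of all genes). They were the IGF-binding proteins Igfbp3 and Igfbp7, by 1.40-fold and 1.24-fold, with adjusted p up to 0.0867 without HFpEF-scr 2 and 0.138 without HFpEF-scr 1.

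In sterol and fatty acid synthesis 3 of 30 genes fell and 1 rose (median -0.07). Srebf2, the master regulator of cholesterol synthesis, was at 32.4, 32.8, 33.99 and 29.5 CPM against 22.04, 21.9, 24.1, 26.3 and 22.7 CPM, without overlap. It fell by 1.38-fold (-0.46 ± 0.06, adjusted p = 0.00134), and the call was kept. Fdft1, squalene synthase, rose by 1.27-fold (adjusted p = 0.0284, up to 0.0759 without HFpEF-scr 1).

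Of 22 clock genes 3 fell (13.6%, beside 2.26% of all genes) and 0 rose. The list median was 0.13, with 13 log2 fold changes above 0 and 9 below. At an unadjusted p under 0.05 in edgeR's test, 9 were higher and 5 lower. Arntl, which encodes BMAL1, the positive arm of the clock, was at 7.53, 15.7, 7.11 and 2.41 CPM in HFpEF-scr and 1.46, 2.02, 1.52, 1.34 and 1.67 CPM in HFpEF-FoxO1-sh. The scrambled libraries spread widely, HFpEF-scr 2 highest and HFpEF-scr 4 lowest, while the hairpin libraries were close together (log2 fold change -2.35 ± 0.63, adjusted p = 0.0491, up to 0.132 without HFpEF-scr 2). Its partner Clock fell by 1.49-fold and Bhlhe40 by 1.45-fold, with adjusted p up to 0.0958 without HFpEF-scr 2 and 0.104 without HFpEF-scr 3. Genes known to peak in another phase than Arntl were not called, with log2 fold changes of 0.73 ± 0.22 for Per3, 0.48 ± 0.14 for Tef, 0.61 ± 0.29 for Dbp and -0.35 ± 0.16 for Nr1d1 and adjusted p of 0.075, 0.0703, 0.255 and 0.229. Time of harvest is not given in the sources used here.

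Of the lists with no call in edgeR's test, 6 were pathway lists, and the others were cell type markers. The 6 were nitric oxide and cGMP signalling (21 genes), antigen presentation (21), the unfolded protein response (34), cell cycle (40), the cytosolic ribosome (76) and the proteasome (34). At an unadjusted p under 0.05 they held 0, 0, 2, 1, 7 and 8 genes higher and 3, 4, 12, 6, 0 and 0 lower. Over all 13588 genes the counts at that p were 1269 higher and 1407 lower. DESeq2 called 1, 2, 3 and 0 lower in the first 4 lists, 0 in the ribosome and 1 higher in the proteasome. The nitric oxide and cGMP list had 19 of 21 log2 fold changes below 0 (median -0.13). The oxidative stress list had 3 rises of 37, Osgin1, Prdx5 and Sod1 (median 0.08), the latter pair with adjusted p up to 0.0898 without HFpEF-FoxO1-sh 1 and 0.118 without HFpEF-scr 1. Among the genes above with values, the share of annotated exon bases that another gene also covers was 10% or more in Ankrd23, Itgam and Fbn1, as given, and in 14 others: 61.5% in Nppa, 52.6% in Jund, 25.5% in Mid1ip1, 23.2% in Ctgf, 23.1% in Mpc1, 22.1% in Dusp5, 19.1% in Prdx5, 18.3% in Fdft1, 18.0% in Dbp, 15.1% in Csf1r, 13.4% in Aldh1l1, 13.3% in Myh7, 11.7% in Icam1 and 10.1% in Adam19. Counts of these genes may be less certain. The annotation and strand behind the deposited counts are not given, and the share was taken over both strands.

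Promoter sequence from RefSeq (GRCm38.p6), 250 bases before to 50 after each start, was searched on both strands for 3 motifs, the FoxO core GTAAACA, the AP-1 site TGACTCA and the cyclic AMP site TGACGTCA. No motif was tested for enrichment. Promoters were found for 126 of the 179 genes that rose and 230 of the 307 that fell. The FoxO core was in 5.70% of the 158 promoters of genes that rose, 3.11% of the 289 promoters of genes that fell, 2.52% of the 12985 promoters of genes tested and 3.65% of all 32851 in the table. The AP-1 site was in 3.80%, 6.57%, 3.74% and 5.20% of them, and the cyclic AMP site in 5.06%, 2.08%, 2.90% and 1.79%. A match describes the letters and is no evidence of binding. Col6a1, Ankrd23 and Osgin1, whose matches were printed above, were picked by hand from genes whose calls were kept. They do not stand for the shares given here: both FoxO cores printed are of genes that fell, while the share was 5.70% in rises and 3.11% in falls.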

How the data were processed

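Messenger RNA of mouse left ventricle was poly(A)-selected and sequenced from Swift libraries, per the labels' protocols. The authors' deposited table holds expected counts for 24054 genes, of which 15.1% to 16.4% per library were not whole; the submitters' processing notes name Bowtie2 2.1.0, RSEM 1.2.15 and mm10, and annotation, filters and strand are not given in the sources used here. Columns were matched to samples by library number. Counts were rounded, filtered with filterByExpr, scaled by TMM and tested in edgeR 4.0.16 (R 4.3.3) by quasi-likelihood, each group with its own coefficient, over all 14 libraries (totals of 13174118 to 21247155), so Control libraries add to the estimate of spread. A standard error is the absolute log2 fold change divided by the root of F. Log2 CPM of lists use a prior count of 2. The common biological coefficient of variation was 0.0999. The fit was tested on simulated data. Alternatives were run with DESeq2 1.42.0 and limma 3.58.1.

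The members, the 49 lists and the rule for named genes were chosen with earlier results of these data known. The rule took Foxo1, then 15 called rises and 15 called falls by size (mean over the 9 HFpEF libraries of 2 CPM or more, groups apart, gene models left out), and from every list its 5 members of lowest p, or all where fewer were tested. Other genes in the text were chosen after their values were seen. Lists carry counts and medians, with no test. Results for some genes are not reported here. No pair of libraries of a group was a duplicate. Same-numbered replicates did not deviate together. Exons shared between genes were counted in GENCODE vM21. Plots used matplotlib 3.10.9 (Python 3.11.15).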

Additional observations from a re-analysis of the deposited data

Results flagged for a closer look

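Of 430 groups of values checked, 19 held a library that stood apart from the rest of its group by Dixon's test at the 95% level, a share that chance gives in about 1 of 20 groups. Among matrix genes these were Col5a2 in HFpEF-scr 1 (47.85 CPM, the others 38.7 to 40.2), Col4a1 in HFpEF-FoxO1-sh 1 (330.2 CPM, below 383 to 392), Col18a1 in HFpEF-FoxO1-sh 5 (12.93 CPM, above 10.7 to 11.2) and Adamtsl2 in HFpEF-scr 3 (14.6 CPM, above 8.73 to 9.49). Tcf21 was high in HFpEF-FoxO1-sh 3 (7.312 CPM, the others 4.51 to 5.05), Zyx and Stat3 were low in HFpEF-FoxO1-sh 1 (50.46 and 110.6 CPM), and Flnc and Bhlhe40 were high in HFpEF-FoxO1-sh 2 (620.6 and 77.0 CPM). Dbt was high in HFpEF-scr 3 (95.97 CPM), Kcnj2 high in HFpEF-scr 1 (75.16 CPM) and Cyp4f17 low in HFpEF-scr 4 (1.984 CPM).

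Among mean levels of lists, in log2 CPM, HFpEF-scr 4 was high for respiratory complexes II to V (9.103) and low for stretch-responsive genes (7.63), and HFpEF-scr 1 was low for fibroblast markers (4.724). HFpEF-FoxO1-sh 2 was low for basement membrane and collagen VI (6.299), HFpEF-FoxO1-sh 5 high for FoxO targets (6.582), and HFpEF-FoxO1-sh 3 low for calcium handling (6.951) and high for oxidative stress genes (6.153). For respiratory complexes II to V, HFpEF-scr 4 was the only scrambled library within the hairpin range of that list. For fibroblast markers, HFpEF-scr 1 was the only scrambled library within the hairpin range.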

How the results depend on the processing

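The count of calls (486 in all, 179 higher and 307 lower) depended on the libraries and on the method. DESeq2 called 865 genes (340 higher, 525 lower). Without a filter on low counts 108 were higher, and in edgeR on the 9 HFpEF libraries alone 118. Against a fold of 1.2 there were 16 calls, 0 higher and 16 lower. Without HFpEF-scr 1 and 2 together 54 were called, 12 higher and 42 lower. Leaving out 1 library at a time gave 162 (without HFpEF-FoxO1-sh 1) to 668 (without HFpEF-scr 4), with 44 to 284 higher and 118 to 384 lower. With the replicate number as a block 291 were called (80 higher, 211 lower); same-numbered libraries did not pair, with correlations of 0.03, 0.06, -0.04 and -0.05. Of 134 named genes that were called, 57 stayed called without each library in turn, 94 with the block, 133 of 133 tested in DESeq2, 112 in limma voom and 26 without HFpEF-scr 1 and 2, and no named called gene turned its direction. Values of uncalled genes near 0 turned sign. Without HFpEF-scr 1 and 2 together, Foxo1 was at 0.064, Foxo3 at -0.16 and Egr1 at 0.43 (log2). Leaving out 1 library at a time, Foxo1 ran from -0.075 (without HFpEF-scr 4) to 0.015 (without HFpEF-scr 2) and Foxo3 from -0.033 (without HFpEF-scr 1) to 0.227 (without HFpEF-scr 4). The cause of these differences was not tested.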
